A study of Mus musculus with 6 samples.

Results

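The genes described here encode collagens, laminins and structural glycoproteins of the extracellular matrix, measured by RNA-seq in mouse inner ear organoids. They are the rows of the deposited expression table whose gene name belongs to a matrix gene family by its letters (Col, Lam, Nid, Eln, Fbn, Fbln, Ltbp, Sparc, Ccn and others, with Hspg2, Agrn, Tnc, Postn and Vcan), and 56 of the 4994 rows matched. The PD group held 3 wild-type (WT) organoid samples, labelled as epithelial cells, that were grown for 10 days with 1 µM PD0325901, which blocks the kinases MEK1 and MEK2 upstream of ERK. The DMSO group held 3 wild-type samples grown for the same 10 days with an equal volume of the solvent. Both groups were kept in low-attachment plates in a medium that held the growth factors IGF (50 ng/mL), EGF (20 ng/mL) and bFGF (10 ng/mL), the N2 and B27 supplements and the GSK3 inhibitor CHIR99021 (3 µM). Whether the 3 samples of a group came from separate cultures is not labelled. The p-values below cover only how far these samples differ among themselves, and that spread may be technical.

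Collagens are trimers of chains wound into a triple helix. Fibrillar collagens assemble into the banded fibrils of connective tissue, FACIT collagens, whose own helices are interrupted, sit on the surface of such fibrils, and type IV collagen forms the meshwork of basement membranes together with laminins, nidogens, perlecan and agrin. In the cochlea, collagens of the cartilage kind, types II, IX and XI, form the fibrils of the tectorial membrane, the extracellular sheet that lies over the hair cells. Elastic fibres consist of elastin on a scaffold of fibrillin microfibrils, and matricellular proteins such as SPARC and tenascins bind matrix and cells without forming the main scaffold.

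All 4994 listed genes had been picked on these same 6 samples: in the authors' deposited table none changes by less than 1.5-fold and the highest adjusted p is 0.0499. That a listed gene differed was therefore fixed by the selection, and its direction was not. Counts of called genes are no independent evidence of a difference. The pattern matches 108 gene symbols in GENCODE M21, of which the other 52, Col2a1, Col5a1, Acan and Comp among them, are not analysed here. The values are a normalized signal with no stated scale, so sequencing depth is unknown and levels are compared within a gene, not between genes. Sums and ratios over several genes are compared only between libraries, and genes of high signal weigh most in the sums. Longer genes reached lower values. Among values above 0, the 1st percentile was 0.178 in the 71 genes of 200 to 600 exonic bases. It was 0.04 in the 1971 genes of 5000 or more. The lowest values were 0.08 and 0.01, over those unequal numbers of genes. In bulk samples, fewer cells of a type and less RNA per cell cannot be told apart. The summed signal of the 56 genes was 11151, 10987 and 11468 in the PD libraries, against 4529, 5176 and 5097 in the DMSO libraries. That was 3.84%, 3.70% and 3.91% of all listed signal in PD and 1.57%, 1.77% and 1.74% in DMSO. The members that weighed most in the PD sums were Sparc, Col9a2, Col9a1 and Sparcl1, with means of 2455, 1554, 1371 and 1141. DMSO replicate 1 had the lowest sum of all 6 libraries over the members, and without it 39 members were called higher and 11 lower.

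Most of the listed matrix genes were higher in PD organoids. By limma on log2(signal + 1), adjusted over all 4994 rows, 41 of the 56 members rose, 11 fell and 4 were not called at an adjusted p under 0.05. Over the whole table, 95.5% of rows were called, 44.5% higher and 51.1% lower in PD. The median log2 difference was 0.87 over the members and -0.42 over all listed genes. The same 56 members were 44 higher and 12 lower by the authors' deposited table, where 46.9% of all rows were higher and 53.1% lower. By class, 7 of 9 fibrillar collagens, 5 of 6 FACIT collagens and 4 of 5 basement membrane collagens rose, with median log2 differences of 1.05, 1.03 and 0.72. Laminins and their linkers gave 9 of 10 higher, elastic fibre and microfibril genes 9 of 12, and matricellular genes 4 of 8, with medians of 0.79, 0.98 and 0.34. In 43 members every PD value lay above every DMSO value, in 11 every PD value lay below, and in 2 the groups overlapped, beside 44.6% and 50.6% of all listed genes without overlap in those directions and 95.2% in either.

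**Figure D1:**
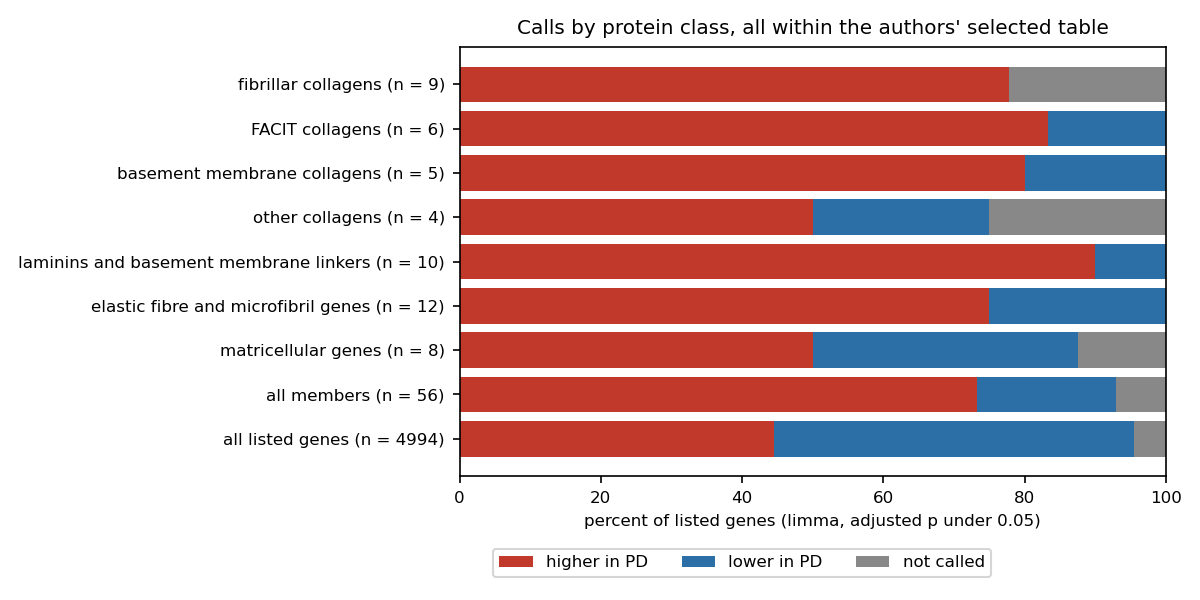
Percent of listed genes (horizontal axis) that were higher in PD, lower in PD or not called by limma at an adjusted p under 0.05, for 7 protein classes, for all 56 members and for all 4994 listed genes. The share called higher is 73.2% over the members and 44.5% over the table, which holds only genes the authors selected for differing.

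Of the members, 46 of 56 had at least 5000 exonic bases in GENCODE M21, where 1971 of 4989 annotated listed genes did. Among all listed genes the share called higher in PD was 50.1% at 5000 exonic bases or more and 37.8% below 2500, so length moved with direction across the table. Its part in the matrix genes' direction was not tested. A total of 10 members averaged below 1 in both groups, 4 of them called higher, 2 called lower and 4 not called. Of the 42 members with a group mean of at least 5, 34 rose and 8 fell, beside 43.6% called higher among all listed genes at that level, and 47 of the 56 had a value of at least 1 in at least 3 samples. Exons of 16 members share bases with a gene on the opposite strand, at most 9.3% of the member's exonic bases. Whether reads were counted by strand is not given in the sources used here, so reads from those stretches cannot be told apart.

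Fibrillar collagens held the largest rises on the log2 scale, Col27a1 and Col11a2, and their summed signal was 1920.1 to 1965.8 in the PD libraries and 348 to 422.5 in the DMSO libraries. Col27a1 (ENSMUSG00000045672, chromosome 4, 63214004 to 63334991, plus strand) on GRCm38, which encodes a fibrillar collagen of cartilage and other tissues, stood at 394, 476 and 401 in the PD libraries, against 33.4, 36.5 and 33.9 in the DMSO libraries. The mean was 12.2 times as high in PD (log2 difference 3.57 ± 0.08, adjusted p = 1.9e-07 by limma). Col11a2 (ENSMUSG00000024330, chromosome 17, 34039437 to 34066685, plus strand) encodes the second chain of type XI collagen, which sets the width of cartilage-type fibrils, and measured 928, 948 and 952 in the PD libraries, against 102, 113 and 117 in the DMSO libraries. Its mean was 8.52 times as high in PD (log2 difference 3.08 ± 0.06, adjusted p = 1.52e-07), and its PD values lay within a narrow band far above every DMSO value. Col11a1, the first chain of the same collagen, gave 577, 473 and 594 in the PD libraries, against 206, 265 and 242 in the DMSO libraries, a 2.3-fold higher mean (log2 difference 1.20 ± 0.12, adjusted p = 4.88e-05).

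Among fibrillar collagens of soft connective tissue, Col5a2 and Col3a1 rose and the type I chains were not called. Col5a2, a chain of the type V collagen that starts fibrils, measured 5.70, 5.05 and 5.91 in the PD libraries, against 0.38, 0.40 and 0.31 in the DMSO libraries (log2 difference 2.26 ± 0.11, adjusted p = 2.54e-06). Its mean was 15.3 times as high in PD, the largest ratio of means among members above 0 in every library, although the PD level stayed near 5 to 6. Col3a1, the chain of the type III collagen of blood vessels and loose tissue, stood at 13.8, 17.3 and 11.98 in the PD libraries, against 4.38, 7.15 and 7.96 in the DMSO libraries (log2 difference 1.05 ± 0.22, adjusted p = 0.00233). The chains of type I collagen, the main collagen of bone and skin, were near or below 1 in every library. Col1a1 measured 1.37, 0.21 and 0.43 in the PD libraries, against 1.03, 0.62 and 1.06 in the DMSO libraries. The first PD library was the highest of all 6 and the other PD libraries were the lowest. Col1a1 was not called (adjusted p = 0.362), and without PD replicate 1 its log2 difference was -0.52 with an adjusted p of 0.0145. The authors' deposited table gives Col1a1 a fold of 0.458, where the ratio of the deposited mean signals is 0.742. Col1a2 was at 0.08, 0.16 and 0.16 in the PD libraries, against 0.03, 0.02 and 0.00 in the DMSO libraries and was not called (adjusted p = 0.0506), but passed at 0.0315 without PD replicate 1. Col5a3 rose to 0.48 ± 0.06 in PD, against 0.19 ± 0.11 in DMSO, and Col24a1, a fibrillar chain known from developing bone, to 0.23 ± 0.036 in PD, against 0.02 ± 0.0173 in DMSO (SD, n = 3 each).

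The bases just before the RefSeq starts of Col27a1 and Col11a2, the members with the largest rises on the log2 scale, and of Col25a1, the member with the largest fall (described below), are shown 5′ to 3′ from GRCm38.p6 as 250 bases each, to give the sequence context of the members that differed most. The GENCODE M21 genes begin at other bases. Those of Col27a1 and Col25a1 begin at 63214004 and 130131501, so these 2 windows lie inside the genes as annotated there. That of Col11a2 begins at 34039437, after its window. Which start was used in these samples was not tested. Capitals mark matches, on either strand, to GGGCGG (the GC box), to CCAAT (the CCAAT box), to CCGGAAGT (an ETS motif), to TGANTCA (an AP-1 motif), to ACAATGG (a SOX motif), to ACGTG (the core of hypoxia response elements) or to GGATNTGG.
Col27a1, chr4:63215162-63215411, + strand: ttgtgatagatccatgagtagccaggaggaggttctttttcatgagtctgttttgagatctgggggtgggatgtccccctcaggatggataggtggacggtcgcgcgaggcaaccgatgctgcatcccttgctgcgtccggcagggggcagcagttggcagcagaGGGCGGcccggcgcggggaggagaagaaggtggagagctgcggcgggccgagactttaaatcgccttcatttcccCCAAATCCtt
Col11a2, chr17:34038888-34039137, + strand: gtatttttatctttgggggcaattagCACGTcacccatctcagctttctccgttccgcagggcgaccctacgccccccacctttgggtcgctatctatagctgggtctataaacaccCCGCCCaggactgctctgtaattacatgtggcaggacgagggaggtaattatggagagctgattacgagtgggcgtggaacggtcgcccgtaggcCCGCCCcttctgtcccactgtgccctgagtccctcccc
Col25a1, chr3:130180595-130180844, + strand: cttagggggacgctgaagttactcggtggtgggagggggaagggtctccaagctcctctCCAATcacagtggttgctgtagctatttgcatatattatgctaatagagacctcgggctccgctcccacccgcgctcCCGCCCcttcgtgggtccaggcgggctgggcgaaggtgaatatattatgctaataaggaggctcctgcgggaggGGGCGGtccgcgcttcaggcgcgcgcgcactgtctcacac
All 3 hold GGGCGG on one strand or the other, the first base lying 85 bases before the start in Col27a1, 133 and 38 in Col11a2 and 114 and 40 in Col25a1. GGATNTGG lies 10 bases before the start of Col27a1, ACGTG 224 bases before that of Col11a2 and CCAAT 191 bases before that of Col25a1. Windows of 250 bases before to 50 bases after a RefSeq start were matched by symbol and chromosome for 39 of the 56 members, with 50 windows in all. GGGCGG occurred in 62.0% of those 50 windows and in 35.7% of all 32851 windows, and the median GC content was 60% in members' windows and 52.7% in all. It stood in 55.6% of the 36 windows of members that rose and in 81.8% of the 11 windows of members that fell. CCAAT occurred in 34.0% of members' windows and 37.4% of all, and ACGTG in 14.0% and 19.6%. The remaining 4 motifs occurred in at most 6.0% of members' windows and at most 7.81% of all.

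Among FACIT collagens, all 3 chain genes of type IX collagen rose, a heterotrimer of different chains that decorates cartilage-type fibrils. Col9a2 (ENSMUSG00000028626, chromosome 4, 121039385 to 121055322, plus strand) measured 1488, 1645 and 1528 in the PD libraries, against 575, 579 and 595 in the DMSO libraries (log2 difference 1.41 ± 0.05, adjusted p = 8.95e-07). Col9a3 gave 579, 569 and 601 in the PD libraries, against 251, 270.3 and 258 in the DMSO libraries (log2 difference 1.16 ± 0.05, adjusted p = 1.41e-06), and Col9a1 gave 1418, 1250.0 and 1446 in the PD libraries, against 662, 776 and 759 in the DMSO libraries (log2 difference 0.90 ± 0.08, adjusted p = 3.67e-05). For each chain the PD values lay above all DMSO values, and the means were 2.67, 2.24 and 1.87 times as high in PD. Col16a1, a FACIT collagen of fibrils and microfibrils, stood at 116, 135 and 109 in the PD libraries, against 55.6, 73.9 and 74.2 in the DMSO libraries (log2 difference 0.82 ± 0.13, adjusted p = 0.000597). Col14a1, which binds type I fibrils, rose at low signal, with 2.79 ± 0.66 in PD and 0.54 ± 0.18 in DMSO (SD, n = 3 each; log2 difference 1.29 ± 0.16, adjusted p = 0.000168). Col22a1, a collagen of tissue junctions, was the one FACIT member that fell, at 0.17, 0.09 and 0.29 in the PD libraries, against 0.32, 0.53 and 0.52 in the DMSO libraries (adjusted p = 0.0211). That call was lost without PD replicate 1 (adjusted p = 0.0503), PD replicate 2 (0.0636), DMSO replicate 2 (0.0616) or DMSO replicate 3 (0.0617).

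**Figure D2:**
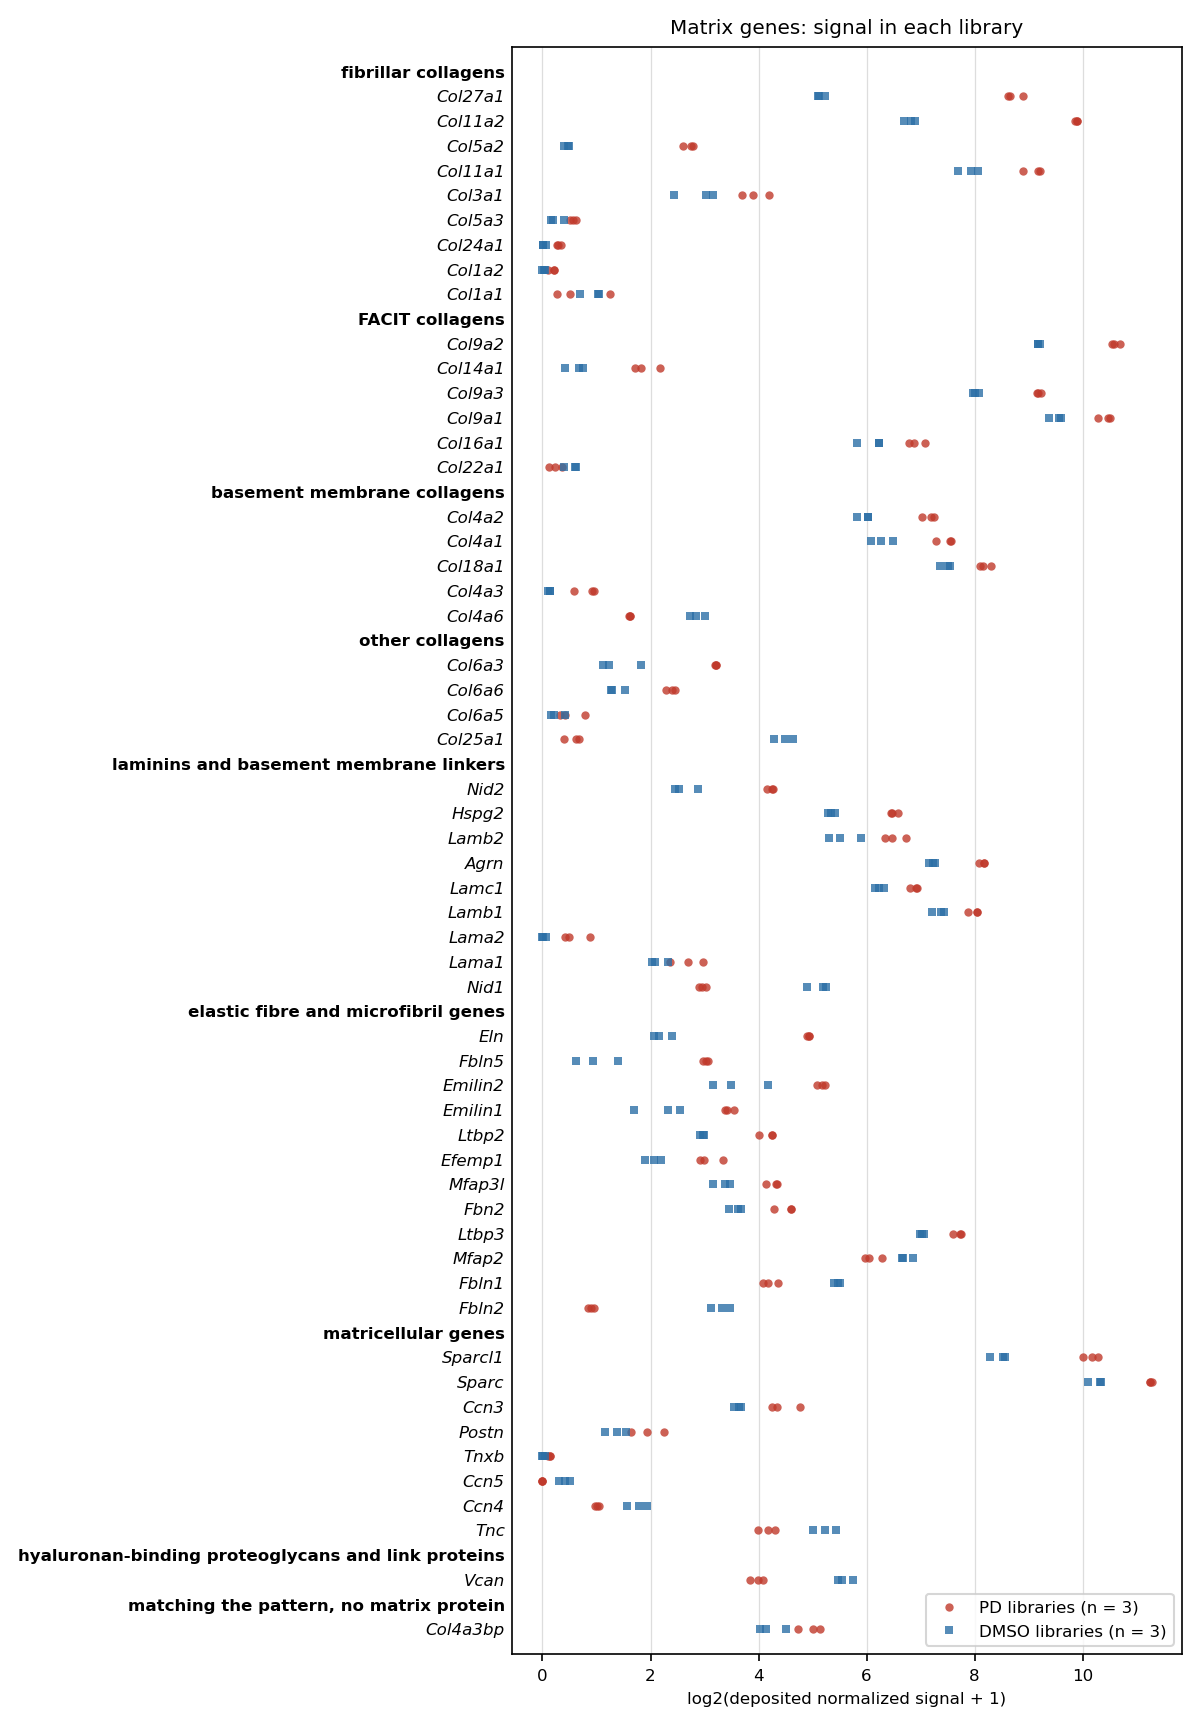
Deposited normalized signal of 55 of the 56 members in each library, on a horizontal log2(signal + 1) axis, with PD libraries as red circles and DMSO libraries as blue squares (n = 3 each), grouped by protein class. Most red circles lie to the right of the blue squares in the same row, and Col25a1, Nid1, Fbln2, Fbln1, Tnc and Vcan are among the rows where they lie to the left.

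Among basement membrane collagens, the ubiquitous type IV chains rose together and a chain of restricted expression fell. Col4a1 (ENSMUSG00000031502, chromosome 8, 11198423 to 11312826, minus strand) measured 186, 155 and 188 in the PD libraries, against 67.1, 88.8 and 75.6 in the DMSO libraries (log2 difference 1.18 ± 0.12, adjusted p = 5.49e-05). Its divergent neighbour Col4a2 (ENSMUSG00000031503, chromosome 8, 11312805 to 11449287, plus strand) measured 145, 129.5 and 151 in the PD libraries, against 55.4, 64.4 and 63.95 in the DMSO libraries (log2 difference 1.20 ± 0.08, adjusted p = 1.1e-05). The 2 chains make up the common type IV trimer, and their means were 2.28 and 2.31 times as high in PD. Their first exons overlap by 22 bases on opposite strands, which are shown in capitals with 4 bases on either side, because both transcripts start there and run outwards in opposite directions.
Col4a1-Col4a2, chr8:11312801-11312830, + strand: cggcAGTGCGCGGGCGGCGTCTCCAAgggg
The RefSeq start of Col4a1 is base 11312826 and that of Col4a2 is base 11312805 of chromosome 8 on GRCm38.p6, the same bases as in GENCODE M21. Col18a1, the basement membrane proteoglycan from which endostatin is cut, stood at 285, 274 and 314 in the PD libraries, against 163, 185 and 180.0 in the DMSO libraries (log2 difference 0.72 ± 0.07, adjusted p = 5.86e-05). Col4a6, an X-linked chain of epithelial basement membranes, fell, with 2.03, 2.09 and 2.09 in the PD libraries, against 5.64, 7.04 and 6.20 in the DMSO libraries (log2 difference -1.24 ± 0.12, adjusted p = 5.6e-05). Its DMSO mean was 3.04 times the PD mean. Col4a3, a chain known from kidney, lung and cochlea, rose but stayed below 1, with 0.77 ± 0.24 in PD and 0.093 ± 0.0115 in DMSO (SD, n = 3 each). Col4a5, the usual partner of Col4a6, and Col4a4 are not analysed here.

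The remaining collagens diverged. Col25a1 (ENSMUSG00000058897, chromosome 3, 130131501 to 130599877, plus strand), a transmembrane collagen known from neurons and developing muscle, had the largest fall of the 56 members, at 0.54, 0.31 and 0.59 in the PD libraries, against 18.6, 23.8 and 21.4 in the DMSO libraries (log2 difference -3.91 ± 0.14, adjusted p = 8.61e-07). Its DMSO mean was 44.2 times the PD mean. Of the type VI chains, which form beaded filaments around cells, Col6a3 rose, with 8.32, 8.11 and 8.24 in the PD libraries, against 1.35, 2.54 and 1.18 in the DMSO libraries (log2 difference 1.81 ± 0.19, adjusted p = 8.21e-05), and the 3 PD values spread less than the DMSO values did. Col6a6 also rose, at 4.27, 3.85 and 4.50 in the PD libraries, against 1.43, 1.87 and 1.41 in the DMSO libraries (log2 difference 1.02 ± 0.13, adjusted p = 0.00019). Col6a5 stood at 0.25, 0.34 and 0.72 in the PD libraries, against 0.12, 0.16 and 0.33 in the DMSO libraries, where the groups overlapped, and was not called (adjusted p = 0.116).

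Laminins are trimers of an alpha, a beta and a gamma chain. The beta and gamma chains of the widespread laminins rose by similar amounts. Lamb1 measured 264, 234 and 263 in the PD libraries, against 148, 171 and 166 in the DMSO libraries (log2 difference 0.65 ± 0.08, adjusted p = 0.000128), and Lamc1 measured 120.0, 110.2 and 121 in the PD libraries, against 70.4, 73.9 and 79.02 in the DMSO libraries (log2 difference 0.65 ± 0.07, adjusted p = 6.65e-05). Both means were about 1.57 times as high in PD, and no DMSO library reached a PD library. Lamb2, the beta chain of vascular and neuromuscular basement membranes, gave 87.3, 105 and 80.4 in the PD libraries, against 38.7, 58.6 and 44.3 in the DMSO libraries (log2 difference 0.94 ± 0.16, adjusted p = 0.000888). The listed alpha chains were Lama1 and Lama2. Lama1, an alpha chain of embryonic basement membranes, averaged 5.50 ± 1.34 in PD and 3.44 ± 0.51 in DMSO and rose (adjusted p = 0.0227), a call lost without PD replicate 1 (adjusted p = 0.0587), PD replicate 3 (0.0708), DMSO replicate 1 (0.0625) or DMSO replicate 2 (0.07). Lama2, the alpha chain of muscle and nerve, was at 0.33, 0.84 and 0.40 in the PD libraries, against 0.01, 0.00 and 0.05 in the DMSO libraries (adjusted p = 0.00362), with every PD library above every DMSO library and the second DMSO library listed at 0. Lama3, Lama4 and Lama5 are not analysed here.

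Of the proteins that link laminin to type IV collagen, the nidogens moved in opposite directions. Nid1 (ENSMUSG00000005397, chromosome 13, 13437551 to 13512269, plus strand) fell, with 6.49, 7.13 and 6.74 in the PD libraries, against 28.7, 37.2 and 35.6 in the DMSO libraries (log2 difference -2.15 ± 0.11, adjusted p = 3.23e-06). Nid2 (ENSMUSG00000021806, chromosome 14, 19751265 to 19811787, plus strand), which encodes the related protein that binds the same partners, rose, with 18.3, 17.9 and 16.9 in the PD libraries, against 4.79, 6.36 and 4.49 in the DMSO libraries (log2 difference 1.60 ± 0.13, adjusted p = 2.27e-05). Neither gene's groups overlapped, PD being the lower group for Nid1 and the higher for Nid2. The DMSO mean of Nid1 was 4.99 times its PD mean, and the PD mean of Nid2 was 3.39 times its DMSO mean. A gene on the opposite strand shares 8.4% of the exonic bases of Nid2 (Rtraf) and 2.1% of those of Nid1 (Gm48682). The heparan sulfate proteoglycans of the basement membrane both rose. Hspg2, perlecan, stood at 87.8, 95.3 and 86.6 in the PD libraries, against 39.4, 38.1 and 41.4 in the DMSO libraries (log2 difference 1.16 ± 0.06, adjusted p = 3.91e-06). Agrn, agrin, which clusters receptors at synapses, stood at 269.8, 286 and 289 in the PD libraries, against 141, 149.5 and 153 in the DMSO libraries (log2 difference 0.93 ± 0.05, adjusted p = 4.61e-06).

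**Figure D3:**
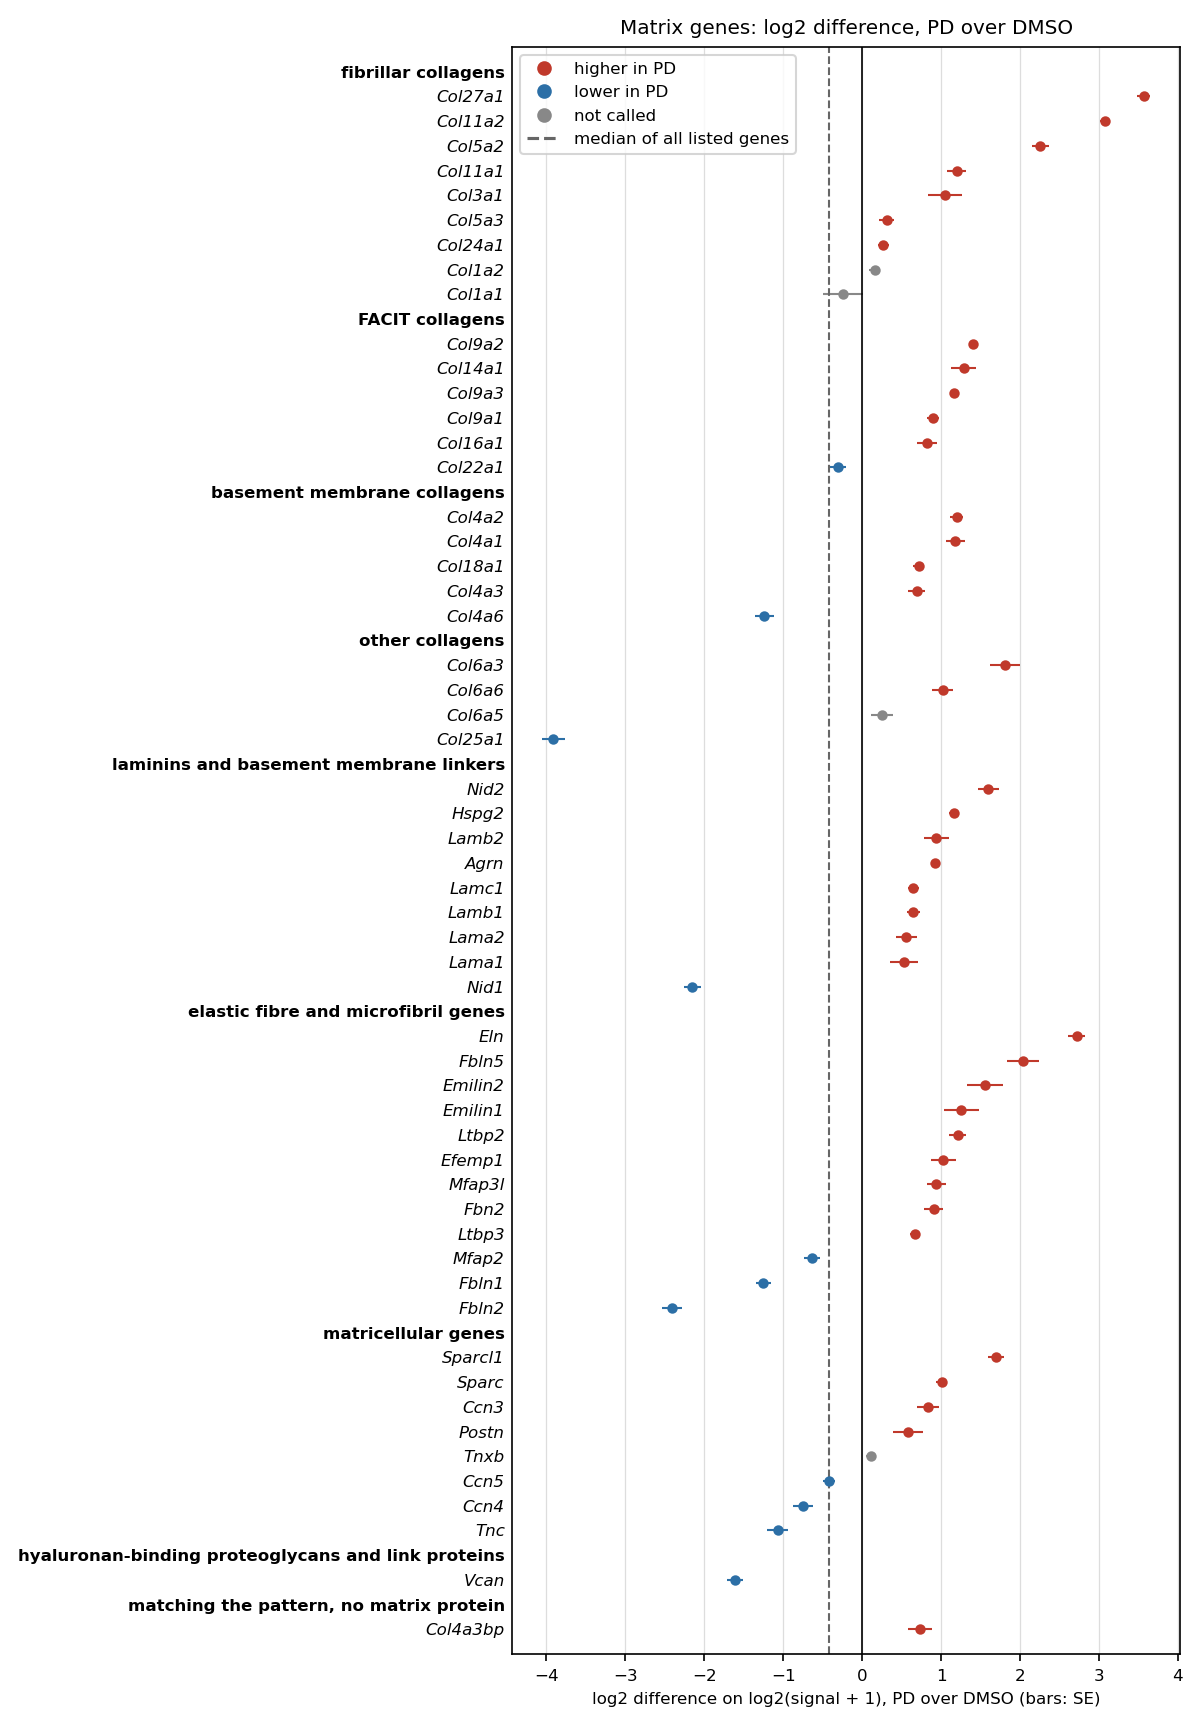
Log2 difference, PD over DMSO, on log2(signal + 1) for 55 of the 56 members (horizontal axis; bars are SE, n = 3 per group), grouped by protein class. The dashed line marks the median of all listed genes, -0.42; members range from -3.91 for Col25a1 to 3.57 for Col27a1.

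Of the 12 genes placed by name in the elastic fibre and microfibril class 9 rose, Mfap3l among them, and Fbln1, Fbln2 and Mfap2 fell. Eln (ENSMUSG00000029675, chromosome 5, 134702593 to 134747323, minus strand), elastin itself, measured 29.5, 28.8 and 29.6 in the PD libraries, against 4.26, 3.47 and 3.16 in the DMSO libraries (log2 difference 2.72 ± 0.11, adjusted p = 1.33e-06), a mean 8.07 times as high in PD. Fbln5, the fibulin that deposits elastin on microfibrils, measured 7.15, 6.89 and 7.39 in the PD libraries, against 0.92, 1.64 and 0.54 in the DMSO libraries (log2 difference 2.04 ± 0.20, adjusted p = 5.26e-05). Both genes had PD values within a narrow range, above every DMSO value. The fibulins Fbln2 and Fbln1, which bind basement membrane and microfibril proteins, went the opposite way. Fbln2 stood at 0.80, 0.94 and 0.86 in the PD libraries, against 7.68, 10.1 and 9.05 in the DMSO libraries (log2 difference -2.41 ± 0.13, adjusted p = 3.97e-06), and its DMSO mean was 10.3 times its PD mean. Fbln1 stood at 17.1, 15.9 and 19.6 in the PD libraries, against 44.6, 43.5 and 41.04 in the DMSO libraries (log2 difference -1.25 ± 0.09, adjusted p = 1.3e-05). Mfap2, a small glycoprotein of microfibrils, fell less, with 61.6, 76.99 and 65.2 in the PD libraries, against 101, 99.6 and 115 in the DMSO libraries (log2 difference -0.63 ± 0.10, adjusted p = 0.000576).

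Emilin2, which encodes a glycoprotein found at the border of elastin and microfibrils, gave 32.96, 35.2 and 36.6 in the PD libraries, against 10.2, 16.9 and 7.97 in the DMSO libraries (log2 difference 1.56 ± 0.23, adjusted p = 0.000429), and the second DMSO library was the highest of its group. Emilin1 averaged 9.92 ± 0.65 in PD and 3.69 ± 1.32 in DMSO (SD, n = 3 each), with the second DMSO library the lowest of its group. Of the latent TGF-beta binding proteins, which hold inactive TGF-beta in the matrix, Ltbp3 stood at 211, 213 and 193 in the PD libraries, against 126, 129 and 132 in the DMSO libraries (log2 difference 0.67 ± 0.06, adjusted p = 2.45e-05), and Ltbp2, which binds elastic fibres rather than TGF-beta, averaged 17.04 ± 1.73 in PD and 6.77 ± 0.24 in DMSO. A gene on the opposite strand, D030025P21Rik, shares 9.3% of the exonic bases of Ltbp2. Fbn2, the fibrillin of embryonic microfibrils, averaged 21.7 ± 2.68 in PD and 11.02 ± 0.92 in DMSO (log2 difference 0.91 ± 0.12, adjusted p = 0.000195). Efemp1, a fibulin-like protein, averaged 7.55 ± 1.44 in PD and 3.16 ± 0.42 in DMSO and Mfap3l, which the pattern picks up by name, 18.4 ± 1.46 in PD and 9.15 ± 1.13 in DMSO (SD, n = 3 each), and both rose, by 1.03 and 0.94 on the log2 scale.

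Matricellular genes split, with SPARC family genes higher and tenascin C lower. Sparc (ENSMUSG00000018593, chromosome 11, 55394500 to 55423183, minus strand), a collagen-binding glycoprotein, measured 2442, 2444 and 2479 in the PD libraries, against 1097, 1293 and 1278 in the DMSO libraries (log2 difference 1.01 ± 0.07, adjusted p = 1.03e-05). Sparcl1, its relative known from brain and blood vessels, measured 1148, 1032 and 1243 in the PD libraries, against 309, 366 and 379 in the DMSO libraries (log2 difference 1.70 ± 0.10, adjusted p = 4.28e-06). The means were 2.01 and 3.25 times as high in PD. Tnc, tenascin C, a large glycoprotein of developing and wounded tissue, fell, with 18.7, 14.8 and 17.1 in the PD libraries, against 31.2, 41.96 and 36.6 in the DMSO libraries (log2 difference -1.07 ± 0.13, adjusted p = 0.000147). Tnxb, tenascin X of dermis and tendon, was at 0.07, 0.10 and 0.10 in the PD libraries, against 0.03, 0.01 and 0.00 in the DMSO libraries and was not called (adjusted p = 0.128). Tenascin X was low in all 6 libraries. Of the CCN family of secreted matrix-associated proteins, Ccn3 rose, with 19.3, 18.1 and 26.1 in the PD libraries, against 11.4, 10.7 and 11.8 in the DMSO libraries (log2 difference 0.83 ± 0.14, adjusted p = 0.000845), whereas Ccn4 fell, with 1.01 ± 0.0557 in PD and 2.40 ± 0.42 in DMSO (SD, n = 3 each; log2 difference -0.75 ± 0.13, adjusted p = 0.000792). Ccn5 was listed at 0 in all 3 PD libraries and at 0.43, 0.24 and 0.34 in the DMSO libraries (adjusted p = 0.00132). Postn, periostin, averaged 2.88 ± 0.83 in PD and 1.58 ± 0.35 in DMSO and rose (adjusted p = 0.0191), a call lost without PD replicate 2 (adjusted p = 0.0538) or DMSO replicate 1 (0.0658). Ccn1, Ccn2 and the thrombospondins are not analysed here.

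Vcan, versican, the large hyaluronan-binding proteoglycan of embryonic and migratory matrix, was the one listed member of its class and fell, with 15.97, 13.3 and 14.98 in the PD libraries, against 45.5, 53.00 and 43.3 in the DMSO libraries (log2 difference -1.61 ± 0.10, adjusted p = 7.02e-06). Every PD library was below every DMSO library, and the DMSO mean was 3.2 times the PD mean. Col4a3bp matches the pattern by its name only and encodes the ceramide transfer protein, not a matrix protein. It measured 31.1, 25.6 and 34.05 in the PD libraries, against 15.3, 16.6 and 21.8 in the DMSO libraries (log2 difference 0.73 ± 0.15, adjusted p = 0.0026). Without it, 40 of 55 members rose and 11 fell.

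Ratios between related genes within a library do not depend on how the library was scaled. Of 15 ratios computed, 10 did not overlap between the groups, and they carry no test. Some, Nid2 to Nid1 and Fbln5 to Fbln1 among them, were chosen after the values were seen. Of single listed genes 95.2% did not overlap, and no such share was computed for pairs of genes. The ratio of Nid2 to Nid1 signal was 2.82, 2.51 and 2.50 in the PD libraries, against 0.167, 0.171 and 0.126 in the DMSO libraries. That of Fbln5 to Fbln1 was 0.418, 0.434 and 0.377 in the PD libraries, against 0.0206, 0.0377 and 0.0132 in the DMSO libraries. Both ratios were over 10 times as high in PD as in DMSO, at 16.9 and 17.2 times by their means. Each divides a gene that rose by one that fell, so these ratios restate differences given above. Fbln5 was low in the DMSO libraries, at 0.92, 1.64 and 0.54, so the size of the difference in its ratio is uncertain. Col11a2 to Col11a1 gave 1.61, 2.00 and 1.60 in the PD libraries, against 0.495, 0.424 and 0.485 in the DMSO libraries, so these chain genes rose unequally. Within type IX collagen, Col9a2 to Col9a1 gave 1.05, 1.32 and 1.06 in the PD libraries, against 0.869, 0.747 and 0.784 in the DMSO libraries. In contrast, Col4a2 to Col4a1 averaged 0.806 ± 0.0279 in PD and 0.799 ± 0.065 in DMSO, and Lamc1 to Lamb1 averaged 0.463 ± 0.0077 in PD and 0.461 ± 0.0261 in DMSO (SD, n = 3 each). Both of these overlapped between the groups.

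**Figure D4:**
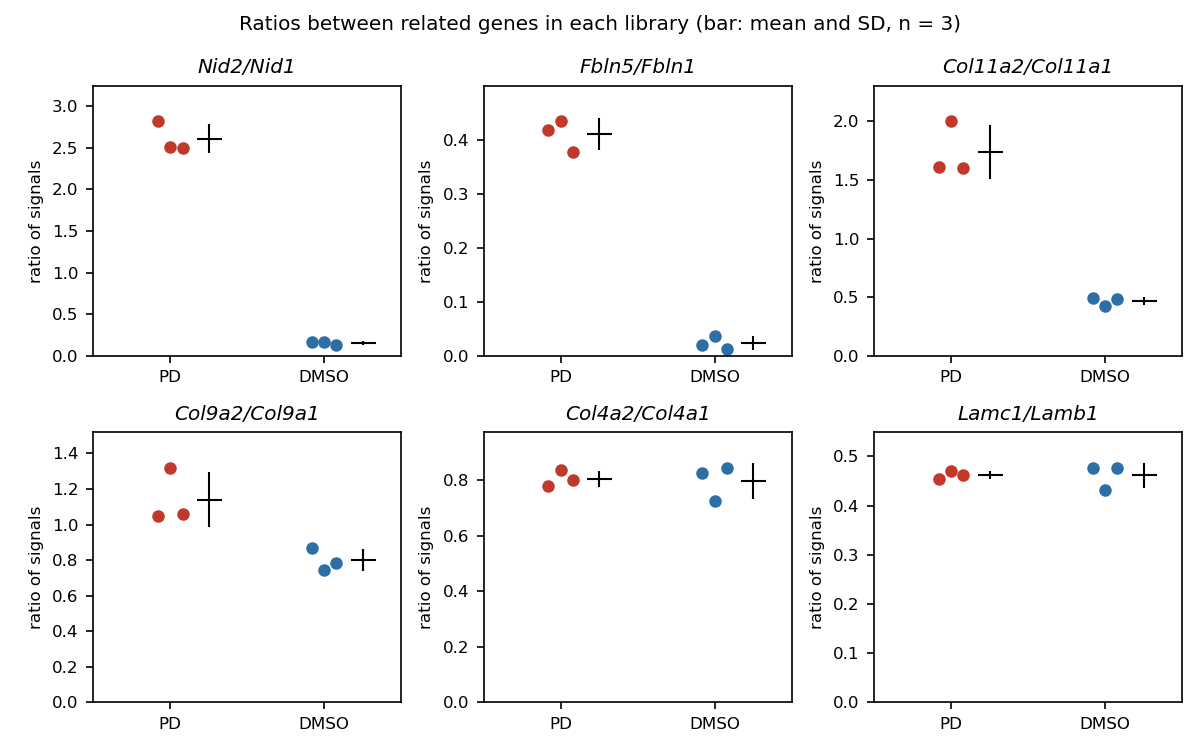
Ratio of deposited signals between 6 pairs of related genes in each library (vertical axes, from 0), with PD left of DMSO; points are libraries and black marks are the mean and SD (n = 3). The upper panels (Nid2/Nid1, Fbln5/Fbln1, Col11a2/Col11a1) and Col9a2/Col9a1 show groups apart, and Col4a2/Col4a1 and Lamc1/Lamb1 show groups that overlap.

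By position, 3 pairs of collagen genes among the members lay next to each other within 200000 bases, and both members of each pair were higher in PD by the authors' deposited table. Besides the overlapping Col4a1 and Col4a2 these were Col3a1 and Col5a2, whose 3′ ends face each other on chromosome 1 at a distance of 24614 bases, and Col6a6 and Col6a5 on chromosome 9 at 27917 bases. Their log2 differences were 1.05 and 2.26 in the pair of chromosome 1 and 1.02 and 0.25 in the type VI pair, the last of which was not called. Of all 24 listed collagens, 20 were higher in PD by the authors' deposited table, and a part of position was not tested.

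Genes that process collagen moved both ways. Beside the counts given here, 44.5% of all listed genes were called higher in PD and 51.1% lower. Of 31 such genes 12 were listed, of which 6 rose and 6 fell, with a median log2 difference of 0.17. Colgalt2, a galactosyltransferase of collagen lysines, averaged 131 ± 1.83 in PD and 47.9 ± 3.14 in DMSO, and Pcolce2, an enhancer of procollagen cleavage, 13.03 ± 1.82 in PD and 0.70 ± 0.12 in DMSO (SD, n = 3 each). Of the 3 listed alpha subunit genes of prolyl 4-hydroxylase 1 rose, P4ha3, at 38.8 ± 1.07 in PD and 15.1 ± 0.78 in DMSO. The other 2 fell, P4ha2 at 4.0 ± 1.35 in PD and 62.8 ± 10.9 in DMSO and P4ha1 at 52.2 ± 2.62 in PD and 146 ± 15.2 in DMSO. P3h1, a prolyl 3-hydroxylase, rose, at 32.0 ± 1.28 in PD and 18.5 ± 3.74 in DMSO. P4ha1 and P3h1 were named after their values were seen. Of 7 crosslinking genes 2 were listed. The lysyl oxidase relative Loxl1, which acts on elastin, rose and Loxl2 fell, at log2 differences of 1.19 and -2.91. Of 17 receptors of collagens and laminins 10 were listed, of which 8 rose and 2 fell, with a median of 0.93. Itga6, the alpha subunit of a laminin receptor, averaged 263 ± 27.7 in PD and 94.2 ± 4.04 in DMSO, Bcam, a receptor of laminin alpha 5, 152 ± 1.86 in PD and 83.7 ± 1.29 in DMSO, and Ddr2, a receptor of fibrillar collagen, 6.24 ± 0.39 in PD and 1.70 ± 0.25 in DMSO. Sgcb, a sarcoglycan of the complex that binds laminin, averaged 10.6 ± 0.64 in PD and 4.18 ± 0.36 in DMSO.

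Of 33 transcription and signal genes known to act on matrix genes 15 were listed, of which 7 rose and 8 fell, with a median log2 difference of -0.43. Over all listed genes 44.5% were called higher and 51.1% lower, with a median of -0.42. Tgfb2, a ligand that induces matrix genes in many cells, averaged 445 ± 24.2 in PD and 56.1 ± 1.48 in DMSO (SD, n = 3 each; log2 difference 2.96 ± 0.06, adjusted p = 1.52e-07). Egr1, an immediate early factor downstream of ERK, averaged 0.28 ± 0.10 in PD and 11.98 ± 1.47 in DMSO. Ski and Skil, related repressors of TGF-beta signalling, averaged, for Ski, 39.6 ± 2.45 in PD and 22.8 ± 0.97 in DMSO and, for Skil, 8.37 ± 0.74 in PD and 19.98 ± 2.30 in DMSO, so one rose and the other fell. Sox5 and Sox6, partners of Sox9 on cartilage collagen genes, rose by 0.72 and 1.03 on the log2 scale and were named after their values were seen. Sox9 is not analysed here.

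Marker genes of several other cell types differed alongside the matrix genes, and their part in the result was not tested. Every listed marker had been selected for differing, and 44.5% of all listed genes were called higher in PD and 51.1% lower. All 5 of the 12 cartilage markers that were listed rose, with a summed signal of 4418 to 4799 in PD and 894 to 970.4 in DMSO, and Matn1, a matrilin of cartilage, was at 0 in the first DMSO library. Cnmd, chondromodulin, averaged 2517 ± 120.1 in PD and 306 ± 9.35 in DMSO. Of the fibroblast and mesenchyme markers 8 of 14 were listed, 6 rising and 2 falling, with sums of 3966 to 4486 in PD and 1749 to 1921 in DMSO. Their log2 differences were 2.13 for Pou3f4, 2.08 for Tbx18, 1.53 for Lum, 1.06 for Dcn, 0.85 for Vim, 0.49 for Pdgfra, -0.48 for Prrx1 and -0.48 for Pdgfrb. Smooth muscle and pericyte markers gave 5 of 11 listed, 3 higher and 2 lower, with sums of 266 to 275 in PD and 44.1 to 46.4 in DMSO, nearly all from Myl9. Endothelial markers gave 4 of 10 listed, 3 higher and 1 lower, with sums of 35.7 to 42.2 in PD and 45.8 to 49.4 in DMSO. The one that fell was Tek, at 9.11 ± 0.73 in PD and 35.3 ± 3.0 in DMSO, whereas Kdr, Emcn and Cdh5 rose. Cdh5 was at 0 in DMSO replicates 1 and 3. Of 5 bone markers 1 was listed, Alpl, and it fell, with 0.16 to 0.55 in PD and 0.95 to 1.06 in DMSO. Of 11 inner ear epithelium markers 6 were listed, 2 rising and 4 falling, with sums of 966 to 1032 in PD and 1694 to 1794 in DMSO. These were, as checks of the labelled epithelial identity, Epcam at 514 ± 15.7 in PD and 836 ± 31.7 in DMSO, Cdh1 at 114 ± 9.27 in PD and 53.6 ± 1.54 in DMSO, Krt8 at 82.97 ± 9.43 in PD and 254 ± 2.16 in DMSO and Krt18 at 89.1 ± 11.9 in PD and 484 ± 20.02 in DMSO (SD, n = 3 each). The otic markers were Oc90 at 191 ± 34.7 in PD and 117 ± 4.70 in DMSO and Sox2 at 1.64 ± 0.39 in PD and 3.33 ± 0.84 in DMSO.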

How the data were processed

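Per the labels' protocols, 2 µg of total RNA per sample went into a kit for stranded mRNA libraries (3 PD and 3 DMSO samples). Trimmomatic, HISAT2, HTSeq, DESeq2 and the build mm10 appear in the submitters' processing notes, without versions or roles. How strand was set is not given in the sources used here. Values deposited by the authors are a normalized signal, written with 2 decimals on a scale that is not stated. The authors' deposited fold, log2 fold, p-value and adjusted p-value are quoted only where named as the authors'.

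Columns were matched to samples by name. Coordinates and exonic lengths come from GENCODE M21 (GRCm38, the assembly of mm10), where 4989 of 4994 rows and all 56 members were found, and promoter windows from RefSeq (GRCm38.p6). limma 3.58.1 in R 4.3.3 fitted group on log2(signal + 1), with a trend and no filter, with Benjamini-Hochberg adjustment over all rows. The script was tested on simulated data. Fold changes on that scale understate low genes. Tables were made with Python 3.11.15 and pandas 2.3.3.

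The members, classes, lists and tests were chosen with earlier results of these data known. Of the members 1, and of the marker lists 1, are not reported here by name. Values in every sample are given, in each class, for the up to 4 members with the highest mean signal and the up to 3 with the largest log2 difference among those with a group mean of at least 5. From each pathway list the 4 genes with the smallest adjusted p are named, and marker genes were named after their values were seen. Alternatives changed the pseudocount, scaling, filter or trend, added the replicate number as a block, or dropped 1 sample.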

Additional observations from a re-analysis of the deposited data

How the results depend on the processing

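Under all 13 alternatives, the number of members called stayed close to 41 higher and 11 lower. It was 43 and 11 with a pseudocount of 0.1, 41 and 11 with a pseudocount of 5, without the trend or with equal sums, and 37 and 9 among the 47 members that kept a value of at least 1 in at least 3 samples. Leaving out 1 sample at a time gave 39 to 41 higher and 10 to 11 lower. No member with a value changed direction. Of the 47 members with a value under all 13, 44 kept their call, and of the 9 that the filter left out, 5 kept theirs under the other 12. The other 7 were Col1a1, Col1a2, Col22a1, Col6a5, Lama1, Postn and Tnxb. Scaling by the median of ratios shifted the median log2 difference of all listed genes by 0.24, to -0.18, and that of the members to 1.21, with 42 higher and 10 lower. Of all listed genes 2262 were then called higher and 2167 lower, where the values as deposited gave 2220 and 2550. Col22a1 then lost its call (adjusted p = 0.0724) and Col1a2 gained one (0.0364). With the pseudocount of 0.1, Col1a2 and Tnxb were called (0.00787 and 0.0163).

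Samples with the same replicate number did not deviate together (correlations of -0.03, -0.01 and 0 across genes), so the numbers were not taken as pairs. With the replicate block 42 members were called higher and 11 lower, Col6a5 being added, and 4761 listed genes were called. The scale of the signal and the depth are unknown, so counting error cannot be given, which bears most on the 10 members below 1 in both groups.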
